A study of Mus musculus with 66 samples.

Results

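The genes described here are 10 well-known transcriptional targets of the glucocorticoid receptor, measured in the medial prefrontal cortex of mice given saline or ethanol. They were chosen by symbol: every probe set annotated to Fkbp5, Sgk1, Tsc22d3, Cdkn1a, Zbtb16, Plin4, Nfkbia, Pdk4, Sult1a1 or Klf9 was taken, with no threshold on their values. All 10 genes were found, with 28 of the 45037 probe sets on the array, and all 10 were among the 13196 genes tested. Expression was measured on 66 Affymetrix arrays of male mice aged 10 to 12 weeks, each array holding RNA pooled from 4 to 5 animals. Mice received saline or ethanol at 1.8 g/kg by intraperitoneal injection, and killing followed 4 hours later. Every mouse, saline controls included, was also held in a restraint tube for 15 minutes and placed in a light-dark box for 10 minutes, so the saline groups are handled and restrained animals rather than untreated ones. The inbred progenitors C57BL/6J (written C57BL6/J in the labels) and DBA/2J had 3 arrays in each treatment, which gives 4 groups. The BXD panel consists of recombinant inbred strains derived from both progenitors, and 27 of its strains were each measured on 1 array per treatment, which gives the other 2 groups.

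The glucocorticoid receptor, encoded by Nr3c1, is held in the cytoplasm by heat shock proteins and co-chaperones until it binds its hormone, which is corticosterone in mice. It then enters the nucleus and binds glucocorticoid response elements, whose consensus is a palindrome of hexamers separated by 3 bases. Restraint is a widely used stressor that raises corticosterone, and acute ethanol is also known to activate the hypothalamic-pituitary-adrenal axis. Among the genes described here, Fkbp5 encodes a co-chaperone that lowers the receptor's affinity for hormone and so closes a short feedback loop. Tsc22d3 encodes the anti-inflammatory protein GILZ, Nfkbia an inhibitor of NF-κB, and Sgk1 a kinase that regulates ion channels and transporters. Klf9 and Zbtb16 encode zinc finger transcription factors, and Cdkn1a encodes a cyclin-dependent kinase inhibitor. Pdk4 encodes a kinase that inhibits the pyruvate dehydrogenase complex, Plin4 a lipid droplet coat protein, and Sult1a1 a phenol sulfotransferase.

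The promoter windows of 4 genes are shown because their levels carry most of the results below and because they differ in this motif. Each window runs from 250 bases before to 50 bases after an annotated start in RefSeq's GRCm38.p6 annotation and is written 5′ to 3′ along the gene. Capitals mark the hexamer AGAACA on either strand (TGTTCT on the other), and the longest unbroken run, in Sgk1, is the full palindrome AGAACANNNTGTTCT. RefSeq lists 6 windows for Sgk1, 3 for Tsc22d3 and 1 each for Fkbp5 and Sult1a1, and for Sgk1 and Tsc22d3 the window with the most hexamers is shown. The Sgk1 window shown lies at chr10:21993640-21993939 on the plus strand, and the Fkbp5 window at chr17:28486100-28486399 on the minus strand. The Tsc22d3 window shown lies at chrX:140600473-140600772 on the minus strand, and the Sult1a1 window at chr7:126676369-126676668 on the minus strand.
Sgk1: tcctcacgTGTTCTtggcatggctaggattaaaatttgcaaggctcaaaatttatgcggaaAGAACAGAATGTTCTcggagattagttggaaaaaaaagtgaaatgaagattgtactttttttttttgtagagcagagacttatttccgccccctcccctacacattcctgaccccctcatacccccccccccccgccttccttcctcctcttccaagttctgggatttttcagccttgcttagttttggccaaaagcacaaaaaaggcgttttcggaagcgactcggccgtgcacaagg
Fkbp5: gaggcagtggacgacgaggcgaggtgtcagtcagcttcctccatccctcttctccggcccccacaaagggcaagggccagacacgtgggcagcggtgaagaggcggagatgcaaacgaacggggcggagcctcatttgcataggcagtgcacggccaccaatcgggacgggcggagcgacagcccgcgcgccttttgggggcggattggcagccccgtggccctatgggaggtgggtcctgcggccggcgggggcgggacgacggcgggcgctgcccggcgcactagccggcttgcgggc
Tsc22d3: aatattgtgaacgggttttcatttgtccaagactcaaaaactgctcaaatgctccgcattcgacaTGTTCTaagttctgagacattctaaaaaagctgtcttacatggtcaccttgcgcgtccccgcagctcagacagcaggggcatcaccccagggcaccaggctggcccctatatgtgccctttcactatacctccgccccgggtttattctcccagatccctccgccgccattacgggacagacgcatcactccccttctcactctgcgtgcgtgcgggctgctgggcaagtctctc
Sult1a1: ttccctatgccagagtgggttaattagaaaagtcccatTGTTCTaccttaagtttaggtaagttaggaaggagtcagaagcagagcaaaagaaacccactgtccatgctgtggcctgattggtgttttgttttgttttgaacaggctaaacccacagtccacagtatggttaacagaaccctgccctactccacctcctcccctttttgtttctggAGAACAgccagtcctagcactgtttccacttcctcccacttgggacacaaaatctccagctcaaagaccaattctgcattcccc
The full palindrome was present in 3 of all 32851 promoter windows of this length, or 0.00913%, and the Sgk1 window shown was 1 of those 3. There it read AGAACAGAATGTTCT and was centred 182 bases before the start, with a further hexamer upstream of it. The hexamer alone was common, at 18.97% of all windows, and 5 of the 17 windows of the 9 genes with an entry held it. Those 5 windows were 3 of Sgk1, 1 of Tsc22d3 and 1 of Sult1a1, and the other 3 Sgk1 and 2 Tsc22d3 windows held neither motif. The Fkbp5 window held neither motif. Zbtb16 is named only. A match is a description of the letters, and its absence describes only this window.

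The arrays were alike in scale, with medians from 5.67 to 5.77 and standard deviations (SD) from 2.06 to 2.17 on the log2 scale. Of 10 markers of cortical excitatory neurons 9 were measured and were present on the arrays, Camk2a at a mean log2 level of 11.9, Slc17a7 at 10.4 and Tbr1 at 8.44. These mark cortical tissue but do not tell medial prefrontal from other cortex. Array means of 3 choroid plexus markers were 6.22, 6.28 and 8.00 in DBA/2J after ethanol and 6.61 to 7.19 after saline. In C57BL/6J they were 6.26 to 6.43 after ethanol and 6.22 to 6.40 after saline. The part of such tissue in the differences below was not tested. Levels below are log2 values of the brightest probe set of each gene, and 25 of the 28 probe sets lay above the dim level of 5.10 used as a filter. All 10 genes passed that filter, although Plin4, at a mean of 5.53, and Pdk4, at 5.26, lay close to it, where a difference is compressed. Because levels of different probe sets are not on a common scale, genes are compared only by their differences. In tissue of mixed cells, fewer cells of a type and less RNA per cell cannot be told apart. The labels do not say whether pools came from separate litters or days, so p-values measure the spread between pools. In the BXD ethanol test the pairing removes the level of each strain, and that spread also holds differences in ethanol response among strains. In slopes and correlations across strains it also holds differences in level among strains.

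Fkbp5 had the clearest difference between treatments. In C57BL/6J its level was 8.16, 8.07 and 8.21 on the 3 saline arrays and 8.55, 8.62 and 8.38 on the 3 ethanol arrays. In DBA/2J it was 8.11, 8.04 and 8.05 after saline and 8.35, 8.23 and 8.46 after ethanol. In both progenitors each ethanol array lay above each saline array. In the 27 BXD strains the lowest, median and highest levels were 7.73, 8.27 and 8.63 after saline and 8.12, 8.42 and 8.96 after ethanol, and these ranges overlapped over most of their length.

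**Figure D1:**
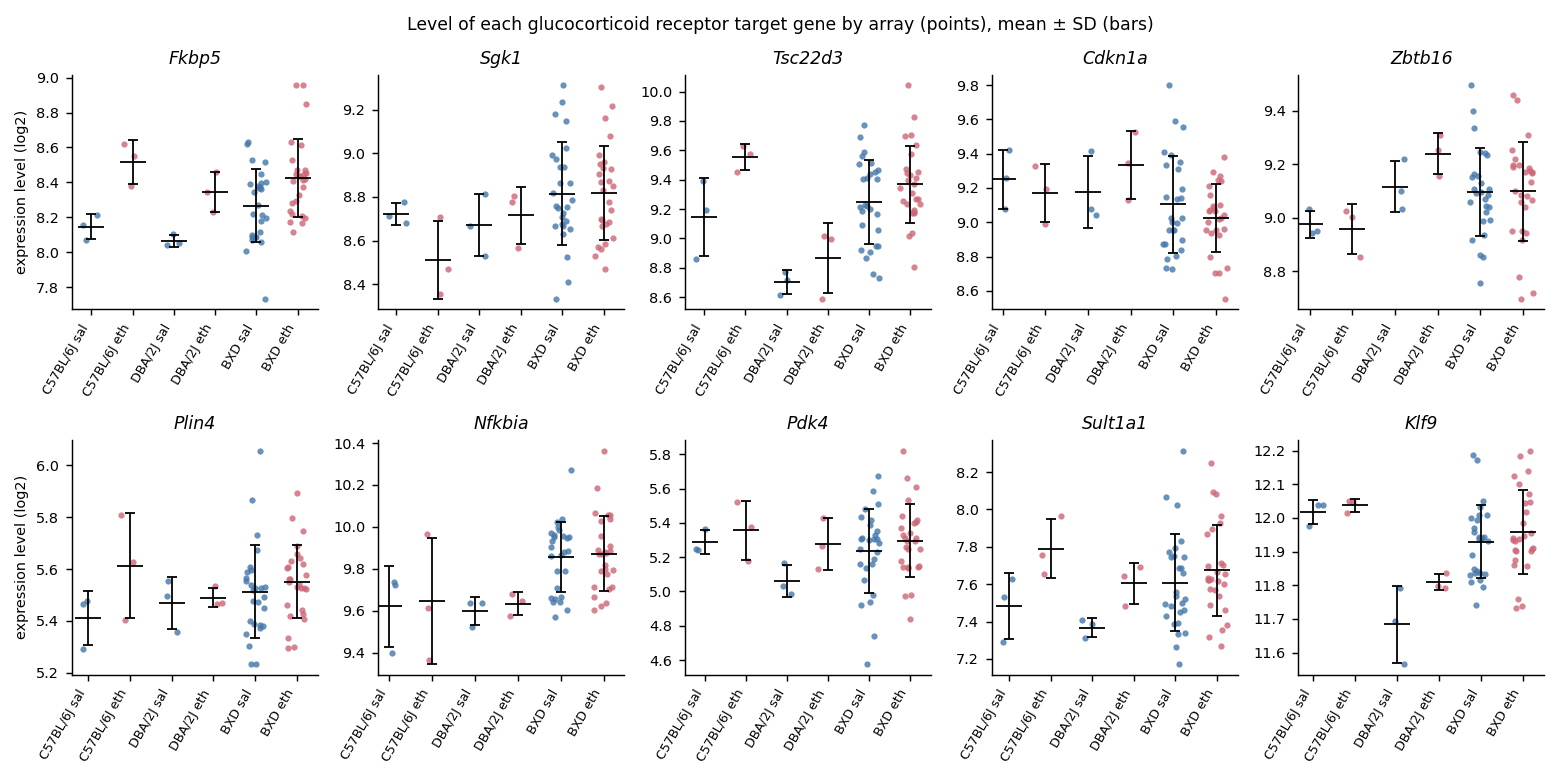
Log2 level (vertical axis) of each of the 10 genes, 1 panel per gene, on every array of the 6 groups (horizontal axis); points are arrays and bars mark the group mean with its SD (n = 3 per progenitor group, n = 27 per BXD group). The Fkbp5 ethanol points of both progenitors lie above their saline points, whereas the BXD saline and ethanol points overlap for every gene.

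Expressed as a difference, ethanol minus saline for Fkbp5 was 0.37 in C57BL/6J (SE 0.09, 95% confidence interval 0.19 to 0.55), or 1.29-fold. It was 0.28 in DBA/2J (SE 0.09), or 1.21-fold, and 0.16 in the BXD strains (SE 0.05, interval 0.06 to 0.26), or 1.12-fold. Unadjusted p was 0.000591, 0.00531 and 0.0023 in limma, and the adjusted p over all genes was 0.766, 0.234 and 0.659, so Fkbp5 passed in none of these comparisons. Averaged over both progenitors the difference was 0.33 (SE 0.06, interval 0.20 to 0.45), with an unadjusted p of 7.51e-05 and an adjusted p of 0.124. Fkbp5 was higher after ethanol in 19 of 27 BXD strains, a count that 1.25% of all genes reached or exceeded. A second Fkbp5 probe set, which had a Pearson r of 0.70 with the first over the saline BXD arrays and 0.90 over the ethanol arrays, gave 0.38 in C57BL/6J, 0.21 in DBA/2J and 0.16 in the BXD strains.

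Sult1a1 and Tsc22d3 had the next smallest unadjusted p for the mean of both progenitors, an order that did not hold in DBA/2J for Tsc22d3 or in the BXD strains for Sult1a1. The Sult1a1 level in C57BL/6J was 7.29, 7.63 and 7.53 after saline and 7.75, 7.96 and 7.65 after ethanol. In DBA/2J it was 7.31, 7.38 and 7.41 after saline and 7.69, 7.48 and 7.64 after ethanol. The groups did not overlap in either progenitor, and the ethanol difference was 0.31 (SE 0.10, adjusted p = 0.922) and 0.24 (adjusted p = 0.362), with a mean of 0.27 (adjusted p = 0.387). In the BXD strains Sult1a1 differed by 0.07 (unadjusted p = 0.240), with 16 of 27 strains higher. Over the alternatives the C57BL/6J difference of Sult1a1 ran from 0.21 to 0.38, and its unadjusted p reached 0.0622 without saline array 1. For Tsc22d3 the C57BL/6J levels were 9.19, 8.86 and 9.39 after saline and 9.63, 9.58 and 9.45 after ethanol, which did not overlap. In DBA/2J the Tsc22d3 levels were 8.61, 8.72 and 8.77 after saline and 8.998, 9.02 and 8.59 after ethanol, so 1 ethanol array lay below all saline arrays. Its difference was 0.41 in C57BL/6J (SE 0.13, adjusted p = 0.922), 0.17 in DBA/2J and 0.12 in the BXD strains (SE 0.06, unadjusted p = 0.0503), where 15 of 27 strains were higher. Single arrays moved the Tsc22d3 values by over 1.5 times: the C57BL/6J difference was 0.26 without saline array 2 (unadjusted p = 0.0531), and the DBA/2J difference was 0.30 without ethanol array 3 and 0.09 without ethanol array 2. The 2 other Tsc22d3 probe sets gave 0.26 and 0.12 in C57BL/6J (unadjusted p = 0.102 and 0.213).

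Read over all 10 genes, 0 passed in C57BL/6J, where 0.00758% of all genes passed, and 0 passed in DBA/2J, where 0% did. Likewise 0 passed for the mean of both progenitors (0.0455% of all genes) and 0 in the BXD strains (0.00758%), by limma and also by the Wilcoxon signed-rank test over BXD strains. At an unadjusted p below 0.05, 3 genes were higher in C57BL/6J, namely Fkbp5, Tsc22d3 and Sult1a1, against 2.17% of all genes. In DBA/2J these were 3 genes, Fkbp5, Sult1a1 and Pdk4, against 8.28% of all genes. For the mean of both progenitors they were 3 genes, Fkbp5, Sult1a1 and Tsc22d3, against 4.88%. In the BXD strains only Fkbp5 reached this level, by limma (1.35% of all genes were higher) and by the Wilcoxon test. Of the 10 genes, 0 were lower at that level in C57BL/6J, DBA/2J or the BXD strains, against 2.81%, 4.18% and 3.58% of all genes. Groups that did not overlap, with ethanol the higher, were counted for 3 of the 10 genes in C57BL/6J (3.78% of all genes) and for 3 in DBA/2J, Fkbp5, Sult1a1 and Klf9 (9.66%). In both progenitors at once the count was 2, Fkbp5 and Sult1a1, against 0.379% of all genes.

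**Figure D2:**
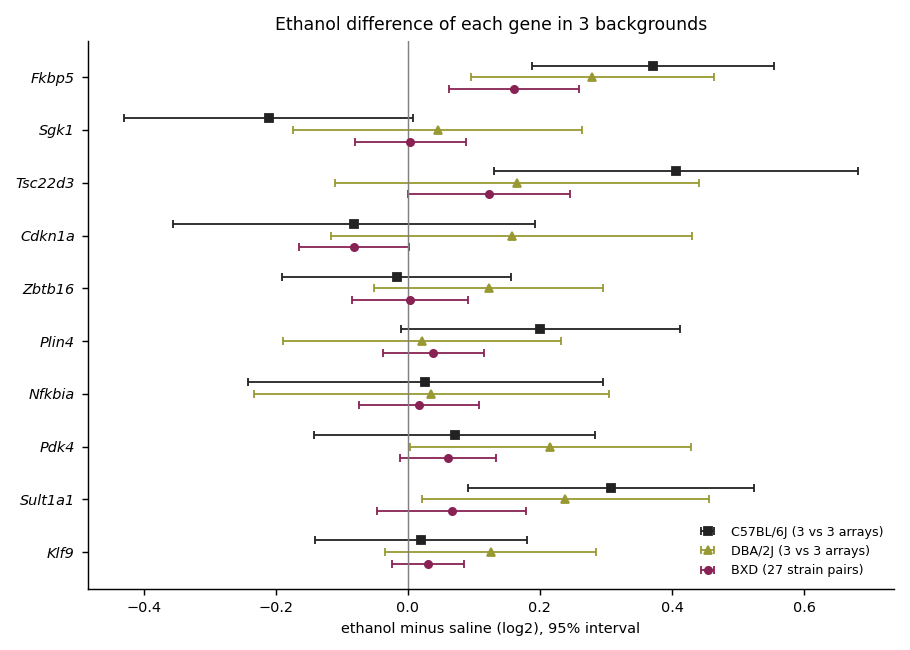
Ethanol minus saline on the log2 scale (horizontal axis) for each of the 10 genes (vertical axis) in C57BL/6J, DBA/2J and the BXD strains; points are limma estimates and bars their 95% confidence intervals. Fkbp5 lies above 0 in all 3, at 0.37, 0.28 and 0.16, and the bars of most other genes cross 0.

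Of the other 7 genes, Pdk4 in DBA/2J was the 1 case with an unadjusted p below 0.05 in these ethanol comparisons. Sgk1, the gene with the palindrome, differed by 0.00 in the BXD strains, with 13 of 27 strains higher. In C57BL/6J Sgk1 levels were 8.78, 8.71 and 8.68 after saline and 8.71, 8.36 and 8.47 after ethanol, a difference of -0.21 (unadjusted p = 0.0579 in limma). Cdkn1a differed by -0.08 in the BXD strains, with 17 of 27 strains lower (unadjusted p = 0.0529). Klf9, Nfkbia, Plin4 and Zbtb16 had BXD differences between 0.00 and 0.04. Pdk4 in DBA/2J was 5.03, 4.98 and 5.16 after saline and 5.27, 5.13 and 5.43 after ethanol, a difference of 0.22 with an adjusted p of 0.396, and those groups overlapped. That value ran from 0.14 (without ethanol array 3) to 0.29 over the alternatives, with an unadjusted p up to 0.213, so its place among the 3 DBA/2J genes rested on single arrays. The median difference of the 10 genes was 0.03 in the BXD strains, 0.05 in C57BL/6J and 0.14 in DBA/2J, beside -0.01, -0.02 and 0.00 over all genes. The test of whether the ethanol difference itself differed between the progenitors passed for 0 of 10 genes (0% of all genes), and 0 reached an unadjusted p below 0.05 (8.31% of all genes). Its smallest adjusted p was 0.622. The intervals in the progenitors are wide, so this does not show that the strains responded alike.

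Marker lists were read beside these differences. Of 15 immediate early genes, which mark recent neuronal activity, 14 were higher after ethanol in C57BL/6J (1 passed), 14 in DBA/2J (0 passed) and 13 in the BXD strains (1 passed), beside 41.3%, 50.9% and 37.6% of all genes with a positive difference. Their array means ran from 8.08 to 8.31 in the saline and 8.52 to 8.75 in the ethanol arrays of C57BL/6J, from 7.89 to 8.21 and 8.24 to 8.51 in DBA/2J, and from 7.58 to 8.94 and 7.85 to 9.05 in the BXD strains. Markers of meninges and fibroblasts, a tissue that can cling to dissected cortex, were higher for 11 of 13 genes in C57BL/6J and lower for 11 of 13 in DBA/2J and 12 of 13 in the BXD strains, with 0 passing. The array means of those markers ran from 7.13 to 7.44 after saline and from 7.38 to 7.58 after ethanol in C57BL/6J. Myelin and oligodendrocyte markers were lower for 11 of 13 genes in C57BL/6J (3 at an unadjusted p below 0.05, against 2.81% of all genes, median -0.14). Their array means were 8.11 to 8.17 after saline and 7.92 to 8.08 after ethanol. In the BXD strains endothelial and pericyte markers were lower for 13 of 14 genes and microglia markers for 10 of 11. Each list had 3 at an unadjusted p below 0.05, against 3.58% of all genes, and 0 passing, and their array means overlapped between treatments. The part of any of these in the differences above was not tested.

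The receptor and its wider target set were read from lists of related genes. Nr3c1, the glucocorticoid receptor itself, differed after ethanol by -0.07 in C57BL/6J, -0.21 in DBA/2J (SE 0.08, adjusted p = 0.344) and -0.04 in the BXD strains. Nr3c2, the mineralocorticoid receptor, which binds the same hormone with higher affinity, differed by -0.06, -0.07 and 0.06. Of 16 genes for receptors, chaperones and corticosterone metabolism 13 were measured, and 0 passed in any ethanol comparison. Of 40 other glucocorticoid-responsive genes 35 were measured, and 0 passed in C57BL/6J, DBA/2J or the BXD strains. At an unadjusted p below 0.05, 3 of those 35 were higher and 1 lower in C57BL/6J, against 2.17% and 2.81% of all genes. In DBA/2J 6 were higher, against 8.28% of all genes, and in the BXD strains 2 were higher, against 1.35%. Positive differences were counted for 25, 19 and 21 of the 35 genes, against 41.3%, 50.9% and 37.6% of all genes.

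The progenitors differed from each other at 3 of the 10 genes. After saline 2 genes were lower in DBA/2J than in C57BL/6J, where 10.3% of all genes differed and 6.27% were lower. Klf9 was 11.98, 12.04 and 12.04 on the C57BL/6J arrays and 11.69, 11.79 and 11.57 on the DBA/2J arrays, with no overlap. Its difference was -0.33 (SE 0.08, adjusted p = 0.00921), or 0.793 of the C57BL/6J level. The other was Tsc22d3, at -0.45 (SE 0.13, adjusted p = 0.0385), or 0.734 of the C57BL/6J level, with all 3 DBA/2J arrays below all 3 C57BL/6J arrays. After ethanol 7.23% of all genes differed and again 2 of the 10 passed. Tsc22d3 differed by -0.69 (SE 0.13, adjusted p = 0.00305). Zbtb16 was higher in DBA/2J, at 9.25, 9.31 and 9.16 against 9.02, 8.85 and 9.001, a difference of 0.28 (SE 0.08, adjusted p = 0.0487). The Klf9 difference after ethanol was -0.23 with an adjusted p of 0.0837, and 3 of its 5 other probe sets passed there.

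Other probe sets of these genes gave a mixed account. The 5 other Klf9 probe sets differed after saline by -0.14 to -0.87, all lower in DBA/2J, and the 2 other Tsc22d3 probe sets by -0.49 and -0.24. After ethanol the 5 other Klf9 probe sets ran from -0.90 to 0.20, and those that passed over all probe sets differed by -0.62 (adjusted p = 0.00419), -0.90 (adjusted p = 0.00202) and -0.44 (adjusted p = 0.0405). The 2 other Zbtb16 probe sets differed after ethanol by 0.02 and 0.28. The second Cdkn1a probe set was higher in DBA/2J by 0.55 after saline (adjusted p = 0.0022, over all probe sets) and by 0.41 after ethanol (adjusted p = 0.0190), whereas the brightest Cdkn1a probe set differed by -0.07 after saline. Probe sequences were not used here, and a strain variant under a probe cannot be told apart from a difference in expression. The Zbtb16 call held under 6 of 22 alternative settings, with adjusted p from 0.029 to 0.169, and the Tsc22d3 call after saline under 15 of 22, with adjusted p from 0.009 to 0.157. The Klf9 call after saline and the Tsc22d3 call after ethanol held under all 22. Markers of myelin and oligodendrocytes were lower in DBA/2J after saline for all 13 genes measured (9 passed, where 6.27% of all genes passed as lower). Their array means were 7.40 to 7.67 against 8.11 to 8.17 in C57BL/6J. After ethanol they were lower for 12 of 13 (5 passed, where 7.23% of all genes passed). Their part in these differences was not tested.

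Among the related genes, Hsd11b1, whose enzyme regenerates active corticosterone inside cells, was lower in DBA/2J, differing by -0.78 after saline (adjusted p = 3.66e-05) and by -0.59 after ethanol (adjusted p = 6.92e-04). Dnajb1, a co-chaperone of the heat shock system, differed by -0.24 after saline (adjusted p = 0.0495). Among the 35 other glucocorticoid-responsive genes, 2 passed after saline, both lower in DBA/2J, where 10.3% of all genes passed and 6.27% were lower. They were Fam107a at -0.63 (adjusted p = 4.03e-05), an actin-associated stress-inducible gene, and Glul at -0.56 (adjusted p = 5.20e-04), glutamine synthetase. After ethanol 4 were lower and 2 higher, where 7.23% of all genes passed. Fam107a differed by -0.53, Glul by -0.61, Map3k6 by -0.68 and Dusp1, a phosphatase that switches off MAP kinases, by -0.55. Gadd45g and the matrix-associated Ccn2 were each higher by 0.36. Nr3c1 differed between the progenitors by 0.05 after saline and -0.09 after ethanol, and neither passed.

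Among the BXD strains, the saline and ethanol arrays of a strain gave a repeat measurement under another treatment. Strain differences shared by both arrays could thus be told from the remaining spread. That remainder mixes spread between pools with ethanol responses particular to a strain, which cannot be told apart here. The test of a strain effect passed for 3 of the 10 genes, Pdk4, Cdkn1a and Sgk1, where 20.4% of all genes passed. Their adjusted p was 1.51e-04, 8.78e-04 and 0.00576. The intraclass correlation, the share of variance that lies between strains, was 0.658 for Pdk4, 0.582 for Cdkn1a and 0.498 for Sgk1, beside a median of 0.184 over all genes. It was 0.409 for Klf9, 0.195 for Fkbp5, 0.214 for Tsc22d3, 0.210 for Sult1a1 and 0.223 for Plin4. Zbtb16, at 0.0732, and Nfkbia, at -0.0218, had the lowest shares. The probe set used for Fkbp5, with the clearest ethanol difference, thus lay near the middle of all genes for strain differences, but the second had -0.167. The other Klf9 probe sets had 0.493, 0.672, 0.525, 0.0132 and 0.563. All of those but the one at 0.0132 passed over all probe sets, with adjusted p from 7.7e-05 to 0.018. Other probe sets of Tsc22d3, Zbtb16 and Nfkbia did not pass.

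Pdk4 ran from 4.58 in BXD20 through a median of 5.30 to 5.67 in BXD42 after saline, and from 4.84 in BXD32 through 5.30 to 5.82 in BXD34 after ethanol. BXD32 was low on both its arrays (4.74 and 4.84) and BXD42 high on both (5.67 and 5.66). The strain means spanned 1.83-fold, and saline and ethanol levels correlated across the 27 strains with a Pearson r of 0.665. Pdk4 lies close to the dim level, and a filter at the 60th percentile removed it. Cdkn1a ran from 8.73 in BXD27 through 9.02 to 9.80 in BXD32 after saline and from 8.55 in BXD28 through 9.04 to 9.38 in BXD01 after ethanol, with r = 0.618. Sgk1 ran from 8.33 in BXD14 through 8.76 to 9.31 in BXD36 after saline and from 8.47 in BXD38 through 8.83 to 9.30 in BXD34 after ethanol. BXD34 and BXD36 lay above the median and BXD38 and BXD14 below it for Sgk1 after both treatments. Its r of 0.50 was 0.364 without BXD36 and BXD34. The second Cdkn1a probe set had an intraclass correlation of 0.77, and its r with the first was 0.64 over the saline arrays and 0.37 over the ethanol arrays.

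**Figure D3:**
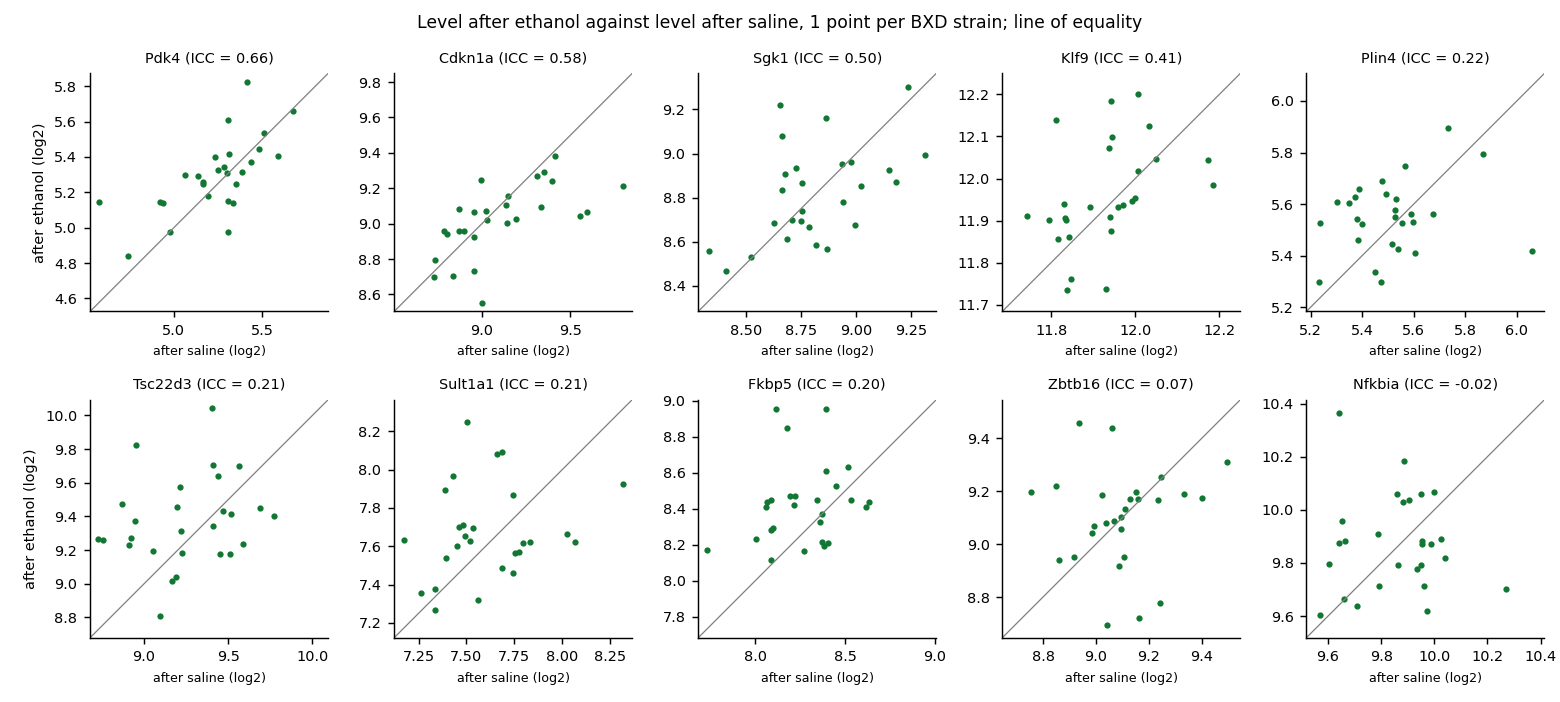
Ethanol log2 level (vertical axis) against saline log2 level (horizontal axis) of each BXD strain, 1 panel per gene in order of intraclass correlation; points are the 27 strains and the line marks equal levels. Pdk4, Cdkn1a and Sgk1 points follow the line, whereas Nfkbia points form a cloud and more Fkbp5 points lie above the line (19) than below it (8).

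The BXD saline levels were not bounded by those of the progenitors. Nfkbia lay above both progenitor means in 25 of 27 strains, and Fkbp5 and Tsc22d3 in 18 each. Cdkn1a lay below both in 18 strains, and Klf9 lay between them in 23. The saline progenitor means ran from 9.60 to 9.62 for Nfkbia, 8.07 to 8.15 for Fkbp5 and 9.18 to 9.25 for Cdkn1a. They lay further apart for Tsc22d3, at 8.70 and 9.15, and for Klf9, at 11.68 and 12.02. A narrow gap leaves little room for a strain to lie between, so the counts cannot be compared between genes. No share over all genes is given for them. These counts were not tested, since the batch of each array was not used here.

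The next question was whether these targets moved together across strains. Over the 27 saline BXD arrays, each gene was regressed on Fkbp5, a slope being the log2 change per log2 unit of Fkbp5. Tsc22d3 had the steepest slope of the other 9 genes, 0.90 (SE 0.20, r = 0.647), and Sult1a1 the next, 0.71 (SE 0.20, r = 0.564). BXD19 had the lowest Fkbp5 (7.73) and the lowest Tsc22d3 (8.73), and BXD31 the highest Fkbp5 (8.63) with Tsc22d3 at 9.45. Of the 9 genes 0 passed after adjustment over 13195 genes, where 0.0379% did (5 genes), and the smallest adjusted p was 0.134, for Tsc22d3. Tsc22d3 ranked 12 and Sult1a1 ranked 45 by r among all genes. At an unadjusted p below 0.05, 5 of 9 had a positive slope, against 5.12% of all genes: Tsc22d3, Sult1a1, Plin4 at 0.38, Nfkbia at 0.31 and Sgk1 at 0.43. Over the alternatives limma's unadjusted p rose to at most 0.0045 for Tsc22d3 and 0.0096 for Sult1a1. It reached 0.114 for Plin4, 0.193 for Nfkbia and 0.208 for Sgk1. Without BXD19 and BXD31 the r with Fkbp5 was 0.212 for Nfkbia, 0.435 for Sgk1 and 0.480 for Plin4. The permutation p of Sgk1 with Fkbp5 was 0.05025. Pdk4 was the exception in sign, at -0.15.

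After ethanol the slopes on Fkbp5 were again positive for most genes, though the order differed. The highest r was that of Pdk4, with a slope of 0.54 (r = 0.569, unadjusted p = 0.00112, adjusted p = 0.267), followed by Sult1a1 at 0.61 (r = 0.563) and Sgk1 at 0.49 (r = 0.505). Klf9 had a slope of 0.27, Tsc22d3 0.56 and Nfkbia 0.37. Of 9 genes 0 passed (0.0531% of all genes), and 6 had a positive slope at an unadjusted p below 0.05 (5.63% of all genes). The Tsc22d3 slope was 0.35 without BXD09 and 0.83 without BXD34, so single strains moved it by over 1.5 times. The Nfkbia slope was 0.20 without BXD09 (unadjusted p = 0.185), and the Klf9 slope, 0.21 without BXD34, then missed an unadjusted p of 0.05. Without both strains the r with Fkbp5 was 0.174 for Sgk1 and 0.231 for Klf9, but 0.478 for Tsc22d3, 0.412 for Pdk4 and 0.414 for Sult1a1. BXD09 had the highest Fkbp5 (8.96) and Tsc22d3 (10.04) after ethanol, and BXD34 paired a Fkbp5 level of 8.95 with a Tsc22d3 level of 9.17. For Pdk4 the ethanol slope exceeded the saline slope by 0.62 (SE 0.25, interval 0.12 to 1.12, unadjusted p = 0.0166, adjusted p = 0.300), in a test chosen after seeing the data. That test passed for 0 of the 9 genes (0% of all genes), and Pdk4 was the 1 gene with an unadjusted p below 0.05 (11.9% of all genes).

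**Figure D4:**
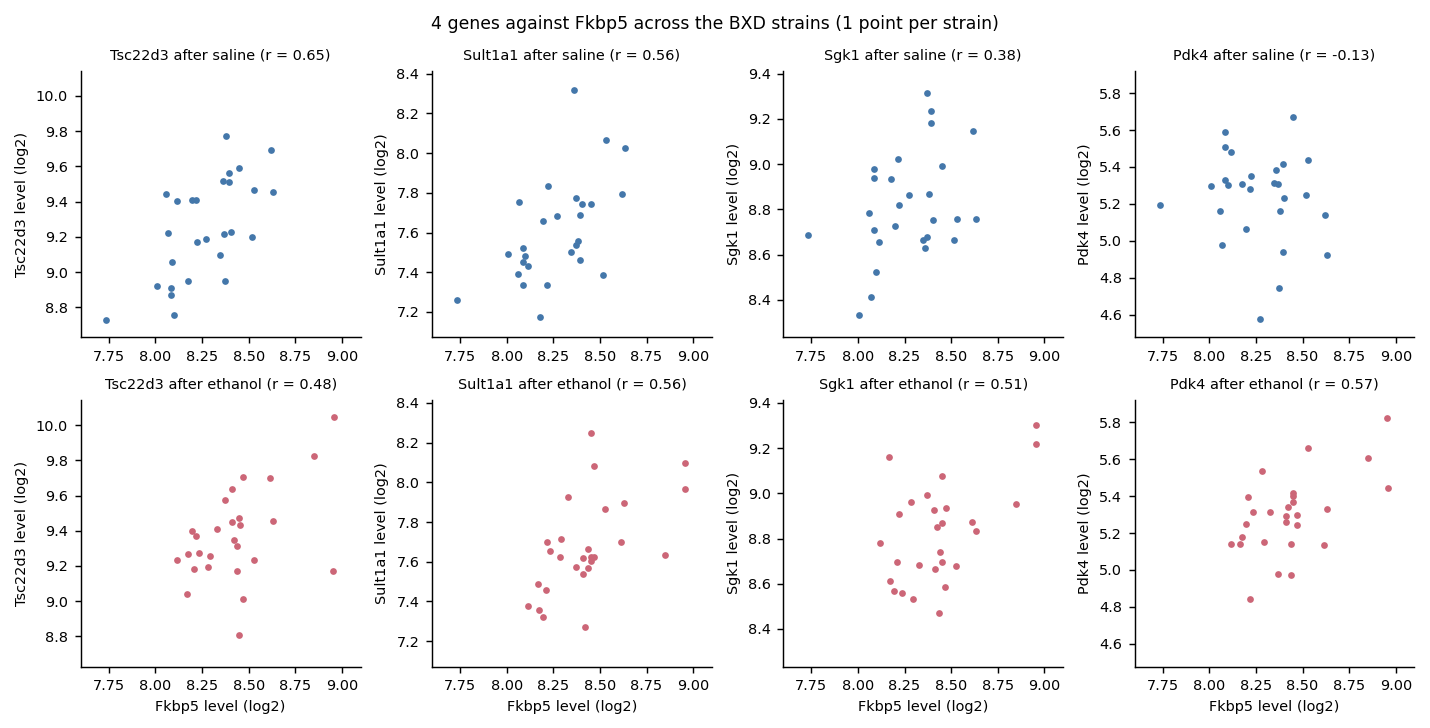
Log2 level of Tsc22d3, Sult1a1, Sgk1 and Pdk4 (vertical axes) against that of Fkbp5 (horizontal axes) over the 27 BXD strains, after saline in the top row and after ethanol in the bottom row; points are strains and panel titles give r. Tsc22d3 and Sult1a1 points run upward in both rows, and Pdk4 has a slope of -0.15 after saline and 0.54 after ethanol.

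All 45 pairs of the 10 genes were then compared over the 27 saline arrays, with permutation p-values adjusted over the 45 pairs. Of these 35 were positive, with a median r of 0.214 and a range from -0.321 (Cdkn1a with Pdk4) to 0.647, and 4 passed, all positive. The pair of Fkbp5 and Tsc22d3 had r = 0.647 and Spearman rho = 0.650 (permutation p = 0.00035, adjusted 0.0158), and r = 0.573 without BXD19 and BXD31. Fkbp5 and Sult1a1 had r = 0.564 and rho = 0.554 (permutation p = 0.0021, adjusted 0.0236), and r = 0.449 without those strains. Tsc22d3 and Nfkbia, which both restrain NF-κB signalling, had r = 0.595 and rho = 0.565 (permutation p = 0.00102, adjusted 0.0158), and r = 0.510 without BXD02 and BXD19. Sgk1 and Klf9 had r = 0.588 and rho = 0.631 (permutation p = 0.00105, adjusted 0.0158), and r = 0.590 without BXD36 and BXD34. After ethanol those 4 pairs had r of 0.476, 0.563, 0.408 and 0.324, and 0 of 45 pairs passed by r, although 33 were positive and 12 had an unadjusted p below 0.05. By Spearman's rho 1 ethanol pair passed, Fkbp5 with Sult1a1 (rho = 0.629, adjusted permutation p = 0.0311), and 4 saline pairs did. Of the 12 saline pairs with an unadjusted p below 0.05, 5 were also below it after ethanol. Pairs share genes and arrays, so the 45 values are not independent. The adjustment over pairs also covers chosen genes alone, and over all genes the slopes of Tsc22d3 and Sult1a1 on Fkbp5 had adjusted p of 0.134 and 0.363. No share over pairs of all genes was computed, so the counts of positive and passing pairs have no background. Tsc22d3 with Nfkbia and Sgk1 with Klf9 have no all-gene value either.

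**Figure D5:**
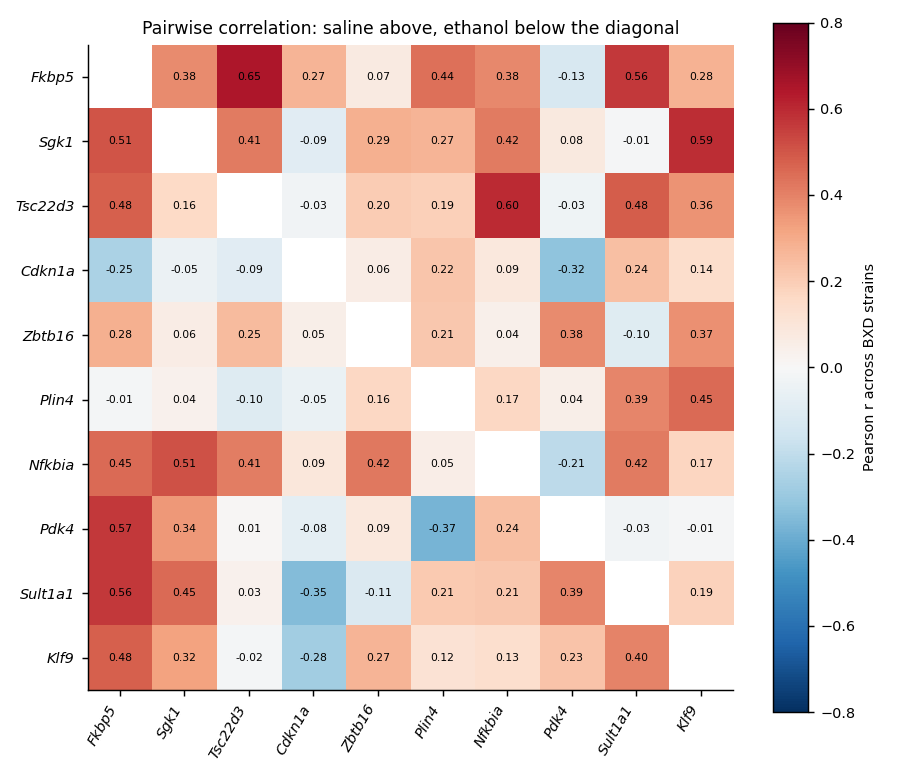
Pearson r of each pair of the 10 genes over the 27 BXD strains (colour scale, with each r printed in its cell), with saline arrays above the diagonal and ethanol arrays below it. Most cells are positive, 35 of 45 after saline and 33 of 45 after ethanol, and the highest saline value is 0.647 for Fkbp5 with Tsc22d3.

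The response of each strain, its ethanol minus its saline level, moved together for several genes by Pearson r. Each response reuses the saline and ethanol arrays of the pairs above, so its correlations are not separate from theirs. The family of response pairs was added after seeing the data, and no share over pairs of all genes was computed for it. Fkbp5 responses ran from -0.21 in BXD23 to 0.84 in BXD09, where the level was 8.11 after saline and 8.96 after ethanol. BXD39 came next for Fkbp5 (0.67) and had the largest Tsc22d3 response, 0.88, from 8.95 to 9.83. BXD09 had the largest response of all 27 strains for 5 genes, Fkbp5, Sgk1 (0.56), Zbtb16 (0.52), Nfkbia (0.72) and Klf9 (0.33). Of 45 pairs of responses 40 were positive and 4 passed, all with Fkbp5: Sult1a1 (r = 0.615, adjusted permutation p = 0.0243), Cdkn1a (0.564, adjusted 0.0424), Tsc22d3 (0.550, adjusted 0.0424) and Klf9 (0.536, adjusted 0.0424). Without BXD09 and BXD39 these r were 0.514, 0.485, 0.345 and 0.318, and by Spearman's rho 0 pairs passed. Responses of other probe sets of a gene were also correlated with those of the probe set used. That r ran from -0.39 to 0.20 for Klf9, was 0.006 and 0.067 for Zbtb16, and was 0.31 for Cdkn1a. It was 0.79 for Fkbp5, 0.93 and 0.49 for Tsc22d3, and ran from -0.004 to 0.69 for Nfkbia. The Klf9 and Zbtb16 responses thus rested on the 1 probe set used. Fkbp5 and Cdkn1a both lie on chromosome 17, with promoter windows 604.0 kb apart in GRCm38.p6, and their levels had an r of 0.27 after saline and -0.25 after ethanol. Leaving out BXD09 changed the mean Fkbp5 response from 0.16 to 0.13 (unadjusted p = 0.0048).

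The genes whose saline levels were most like that of Fkbp5 over the 27 strains were ranked by Pearson r. The first was Wipf3, at 0.805 (adjusted p of its limma slope 0.00418), followed by Mfsd2a, at 0.752 (adjusted p = 0.0245), Lfng, at 0.726 (adjusted p = 0.0339), Rin2, at 0.692, and Gm19439, at 0.688 (adjusted p = 0.0498). Brms1 (0.677), Atg4c (0.671), Eva1a (0.660), Wdr46 (0.660) and Txndc15 (0.659) completed the first 10. Over the ethanol arrays these r were 0.400 for Wipf3, 0.455 for Mfsd2a, 0.557 for Gm19439 and 0.335 for Rin2. They were 0.143 for Lfng, 0.141 for Eva1a, 0.0557 for Brms1, 0.0421 for Wdr46, -0.188 for Atg4c and -0.350 for Txndc15. The values after saline chose these genes and are descriptions, and Tsc22d3, at 0.647, stood just outside them.

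Other lists were read for their slopes on Fkbp5 too. Of the 35 other glucocorticoid-responsive genes measured, 29 had a positive saline slope and 30 a positive ethanol slope, where 51.8% and 53.0% of all genes did, and 1 passed in each; the median slopes were 0.19 and 0.17. After saline the gene that passed was Mfsd2a, the transporter of omega-3 lysolipids at the blood-brain barrier, with a slope of 0.69 (adjusted p = 0.0245). After ethanol it was Slc2a1, the glucose transporter GLUT1, with a slope of 0.72 (adjusted p = 0.00382). Meningeal and fibroblast markers were also one-sided in both treatments, in the other direction. Their slopes were negative for 12 of 13 genes after saline (median -0.14) and 11 of 13 after ethanol (median -0.09), with 0 passing. Immediate early and clock genes had counts of like size in 1 treatment but not in the other. Of 15 immediate early genes, 13 had a positive saline slope (median 0.45) but 4 a positive ethanol slope (median -0.14). Of 16 clock genes, 13 had a positive ethanol slope (median 0.18) and 10 a positive saline slope (median 0.20). In the immediate early and clock lists 0 passed, and they share Dusp1 or Per1 with the glucocorticoid-responsive list. The mean level of the glucocorticoid-responsive list correlated with Fkbp5 at r = 0.740 after saline (adjusted over 260 relations, permutation p = 8.67e-04) and 0.618 after ethanol (adjusted 0.0381), and with Tsc22d3 at 0.745 and 0.632 (adjusted 8.67e-04 and 0.0213). That mean includes Mfsd2a and Slc2a1, and the list was chosen with earlier results of these data known. No background from means of other gene sets of its size was computed, so these r are descriptions. Nr3c1 had a slope of -0.36 on Fkbp5 after saline (SE 0.14, adjusted p = 0.529) and -0.04 after ethanol.

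Relations of the 10 genes to cell type and state markers were counted in the same family of 260, of which 6 passed. Besides those 4, Pdk4 correlated with the mean of 13 astrocyte markers at r = 0.753 after saline (adjusted permutation p = 8.67e-04) and 0.379 after ethanol, which did not pass. Cdkn1a correlated with immediate early genes at r = 0.696 after ethanol (adjusted 0.0026). Fkbp5 had r = 0.493 with striatal markers after saline (adjusted 0.119) and -0.353 after ethanol, and r = -0.0734 with astrocyte markers after saline. Myelin and oligodendrocyte markers had negative ethanol slopes on Fkbp5 for 13 of 13 genes (7 at an unadjusted p below 0.05, 0 passing, median -0.40) and positive saline slopes for 10 of 13, and their mean had r = -0.452 with Fkbp5 after ethanol (adjusted 0.162) and 0.161 after saline. With the myelin mean as a covariate the ethanol slopes on Fkbp5 were 0.58 for Tsc22d3, 0.57 for Sult1a1, 0.56 for Sgk1 and 0.55 for Pdk4. With marker means as covariates, the saline Tsc22d3 slope on Fkbp5 ran from 0.85 to 1.10, beside 0.90 without them. The covariates run were the endothelial and pericyte, astrocyte, myelin and oligodendrocyte, striatal and clock means. The meningeal and fibroblast mean was not among them, and the part of cell types in these slopes was not tested.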

How the data were processed

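The table holds log2 levels per probe set as deposited by the authors, who used affy and RMA according to the submitters' processing notes. Their versions were not stated in the sources used here. RMA corrects background, forces arrays to a common distribution and combines the probes of a set, so levels are relative and a shift shared by all genes is removed. The labels state random assignment to batches, and the batch of an array was not used here. Probe sets were named through the platform annotation (34945 with 1 symbol, 932 with several, 9160 with none), with 34741 symbols updated by Entrez identifier through RefSeq (GRCm38.p6, names only). Probe sets with a mean below the 40th percentile (18015) were removed, and the brightest probe set stood for each gene.

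Differences were tested with limma 3.58.1 in R 4.3.3 (two-sided, with the data.table package, version 1.17.8), with Benjamini-Hochberg adjustment over all genes at 0.05. Each adjusted p in the text is limma's unless named as a permutation p. The BXD ethanol effect used 54 arrays with strain as a block (26 residual degrees of freedom), and the progenitor contrasts used 1 fit of 12 arrays (8 degrees of freedom). Strains pair the BXD arrays: deviations of arrays of 1 strain correlated with a median r of 0.438, against -0.022 for other strains, and 22 of 27 matched their own strain best. The strain effect was a moderated F. The difference in slopes used strain as a random block (correlation 0.197). Correlations used 100000 permutations (Python 3.11.15, numpy 2.4.6, scipy 1.17.1, pandas 2.3.3, with figures by matplotlib 3.10.9). The fits were tested on simulated data.

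Named genes were all 10 genes with each of their probe sets, members of the related lists that passed (at most 8 a comparison), Nr3c1 and Nr3c2 always, and the 10 genes most like Fkbp5. The 10 genes and all lists were chosen with earlier results of these data known. The highest correlation between 2 arrays was 0.997, and each array was kept as a separate sample. The number of arrays limits the precision.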

Additional observations from a re-analysis of the deposited data

How the results depend on the processing

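Among the results and alternatives run, 0 called values changed direction. The counts of 0 of these genes stayed 0 for ethanol in the BXD strains, in C57BL/6J and in DBA/2J, for the interaction and for both slopes on Fkbp5, under the alternatives run and with each array or strain left out. For the progenitor mean, a fit with the leading residual principal component gave 1 gene (Fkbp5, adjusted p = 0.0421, against 0.124), and leaving out 1 array at a time gave 0 to 0. For DBA/2J against C57BL/6J after ethanol, the count of 2 was 1 with no filter, all probe sets, median centring, repeated quantile normalization or a replicate block, 3 with a trended prior, and 1 to 2 with an array left out. After saline the count of 2 was 1 with all 66 arrays in a fit or with the replicate block, and 1 to 2 with an array left out. Of the saline pairs that passed, 4, the count was 0 on ethanol arrays and 7 after regression on the array SD. The strain count of 3 ran from 2 to 4.

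The replicate numbers of the progenitors did not pair the arrays: correlations of same-numbered deviations were 0.082, -0.129 and -0.231 in C57BL/6J and 0.262, 0.117 and 0.056 in DBA/2J. With that block, Tsc22d3 after saline (adjusted p = 0.068) and Zbtb16 after ethanol (adjusted p = 0.0878) missed the threshold. Without strain as a block 0 of the 10 genes and 1 of all genes passed in the BXD strains.

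Over all genes, the DBA/2J ethanol count of 0 became 3 with a 60th percentile filter, 1 with median centring, 22 with a trended prior, 4 with array weights, 242 with the residual component and 30 with all 66 arrays. The BXD count of 1 became 2 under 4 settings and 14 with the residual component, the C57BL/6J count of 1 ran from 0 to 2, and the progenitor mean count of 6 from 3 to 23. With all probe sets, counts rose with the features tested: 1365 to 2124, 954 to 1514 and 2688 to 4098 for the strain differences after saline, after ethanol and in the BXD strains. The saline slope count of 5 ran from 0 (second Fkbp5 probe set) to 15, and the ethanol slope count of 7 from 2 to 13. With 1 array or strain left out the saline strain difference ran from 848 to 1391 genes, and the ethanol slope from 2 to 20. The second Fkbp5 probe set and the striatal covariate were added after seeing the data. The causes were not tested. Signal limits Pdk4 and Plin4, which lie close to the dim level.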
